A study of Mus musculus with 18 samples.

Results

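The genes described here are 34 genes of endoplasmic reticulum (ER) protein folding, ER-associated degradation and the sensors of the unfolded protein response, taken from the count table by a list of gene symbols. All 34 were among the 45777 genes of the table, and all 34 were among the 18848 genes that had enough counts to be tested. They were measured in the colon of male C57BL/6J mice that were 8 weeks old and kept germ-free in isolators. The genotypes were wild type (WT), Lao1-/- (LAO1KO) and Lao1-/- Il4i1-/- (DKO), where Lao1 and Il4i1 encode secreted L-amino acid oxidases. Each genotype was sampled after sterile water or after 24 hours of 2.5% dextran sulfate sodium (DSS) in the drinking water, a polymer that injures the colon epithelium. This gave 6 groups of 3 libraries, lettered A, B and C, which the labels call biological replicates, so all groups share the germ-free state, the strain, the sex and the age. The labels do not say whether the alleles are null in every cell or how the animals were related. The tissue is whole colon, so for every value below fewer cells of a type and less RNA per cell cannot be told apart.

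The ER folds secreted and membrane proteins with the help of the Hsp70 chaperone Hspa5 (BiP), its DnaJ partners, the lectin chaperones calnexin and calreticulin and the protein disulfide isomerases. When unfolded proteins accumulate, the membrane sensors Ern1 and Ern2 (IRE1 alpha and beta), Eif2ak3 (PERK) and Atf6 signal to the nucleus and the ribosome, and the factors Xbp1 and Atf6 raise the transcription of chaperones and of the degradation machinery. Ern2 is known for its expression in the gut epithelium and its role in mucin-secreting goblet cells, which carry a heavy secretory load.

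Libraries held 26003174 to 36553193 counts. CPM give a gene's count relative to the total of its library, scaled throughout with the trimmed mean of M-values (TMM) factors. Lao1 had at most 10 counts in any library, in all genotypes, so its counts do not check the labels. Il4i1 had 0 counts in all 6 DKO libraries, which allows up to 3 counts in each, but it was also at 0 in some WT and LAO1KO libraries, and its highest level was 1.59 CPM. All 6 listed markers of colon epithelium were expressed, with Car1 at 5040 to 11300 CPM. On the leading axis of the distances between libraries, WT water replicate B (-1.87) and LAO1KO water replicate A (-1.47) lay lowest. LAO1KO DSS replicate C came next (-1.06). At the other end DKO DSS replicate B (1.17) and LAO1KO water replicate C (1.07) lay highest, and WT DSS replicate C was at -0.125. Mitochondrial mRNA took 44.9% of the counts in WT DSS replicate C, the highest share of the 18 libraries, which also had the lowest scaling factor, 0.625. WT water replicate B, LAO1KO water replicate A and WT DSS replicate C are below called the 3 libraries that stood apart. LAO1KO DSS replicate C and the libraries at the high end of the axis were not among them. The 3 were chosen after seeing the data and not by a single rule. Without these 3 libraries, the number of the 34 genes called changed in 2 of the 13 comparisons. They were DSS against water in WT and in LAO1KO, and both counts are given there.

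Chaperones of high abundance headed the levels in the colon. Over the 18 libraries the mean level per length, in CPM per kilobase of exon, was 175 for P4hb (protein disulfide isomerase), 140 for Calr (calreticulin), 132 for Pdia3 (the isomerase that works with calnexin and calreticulin) and 101 for Hsp90b1 (the ER Hsp90, GRP94). Sec61b, a subunit of the translocation channel, followed at 73.4, Hspa5 at 57.6 and Canx (calnexin) at 57.5. The sensors lay at the other end, with Eif2ak3 at 4, Atf6 at 3.90 and Ern1 at 0.910 CPM per kilobase. The epithelial sensor Ern2 stood at 16.5 and Xbp1 at 42.1. Derl3 was lowest at 0.204 CPM per kilobase. Neighbours in this order had overlapping ranges over the 18 libraries at every step except between Atf6 and Ern1. Ern1 varied 10.5-fold between its lowest and highest library, Ern2 8.25-fold, Derl3, with a library at 0 counts, at least 5.93-fold (taking 3 counts for the 0), Hyou1 3.24-fold and Hspa5 3.13-fold. Sel1l (1.32-fold), Xbp1 and Ssr1 (both 1.33-fold) varied least.

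**Figure D1:**
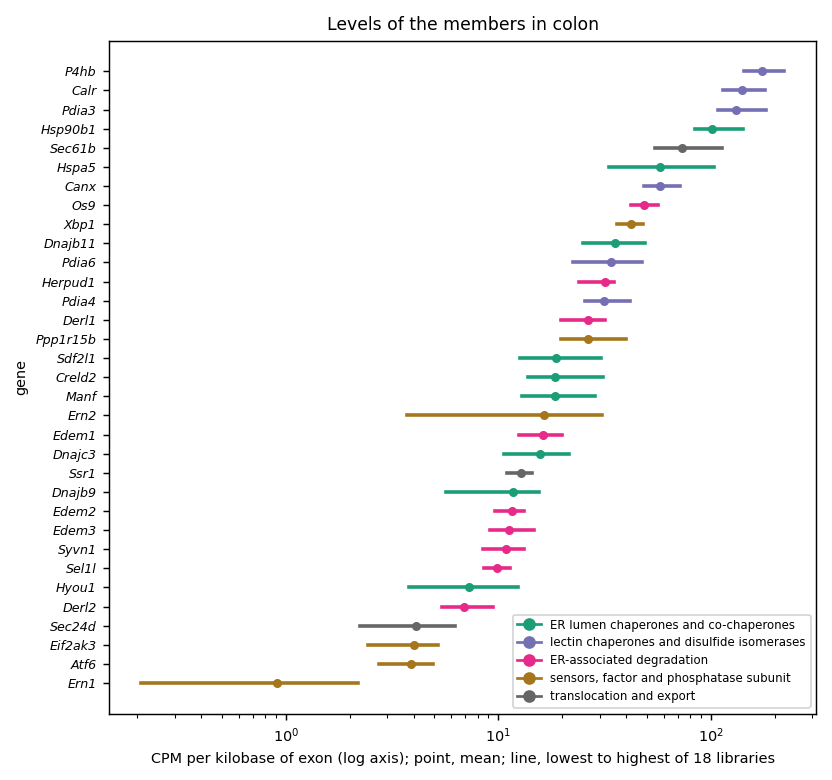
Level of the listed genes other than Derl3 in colon, in CPM per kilobase of exon on a log axis. Points are means and lines run from the lowest to the highest of 18 libraries, coloured by role. P4hb and Calr are at the top (175 and 140) and Ern1 (0.910) is at the bottom with a long line.

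DSS was first compared with water with the 3 genotypes averaged with equal weight. Genes lower under DSS included Hspa5, its co-chaperones Dnajb9, Dnajb11 and Dnajc3, and the degradation genes Edem1 and Edem3. The sensors Ern1 and Atf6 were lower too, as was P4hb, which had the highest level per length of the 34. The abundant chaperones Hsp90b1, Calr, Canx and Pdia3 did not pass edgeR's test in this comparison. Calr passed within WT, and Canx passed with DESeq2 and limma voom, as given below. Of the 34 genes, 15 fell and 0 rose at an adjusted p under 0.05 in edgeR's quasi-likelihood test (44.1%), against 9.18% of all genes tested that fell and 6.72% that rose. No gene of the 34 was higher at an unadjusted p under 0.05, nor in DESeq2 or limma voom, which each called 17 lower (of all genes, DESeq2 called 20.9% and limma voom 33% in either direction). The median log2 fold change of the 34 genes was -0.19, with values from -0.91 to 0.46 and 30 of 34 below 0, beside a median of 0.03 over all genes tested. Falls were of moderate size: Hspa5 was at 287 CPM in water and 200 CPM under DSS, and Dnajc3 at 94.7 and 66.4 CPM.

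**Figure D2:**
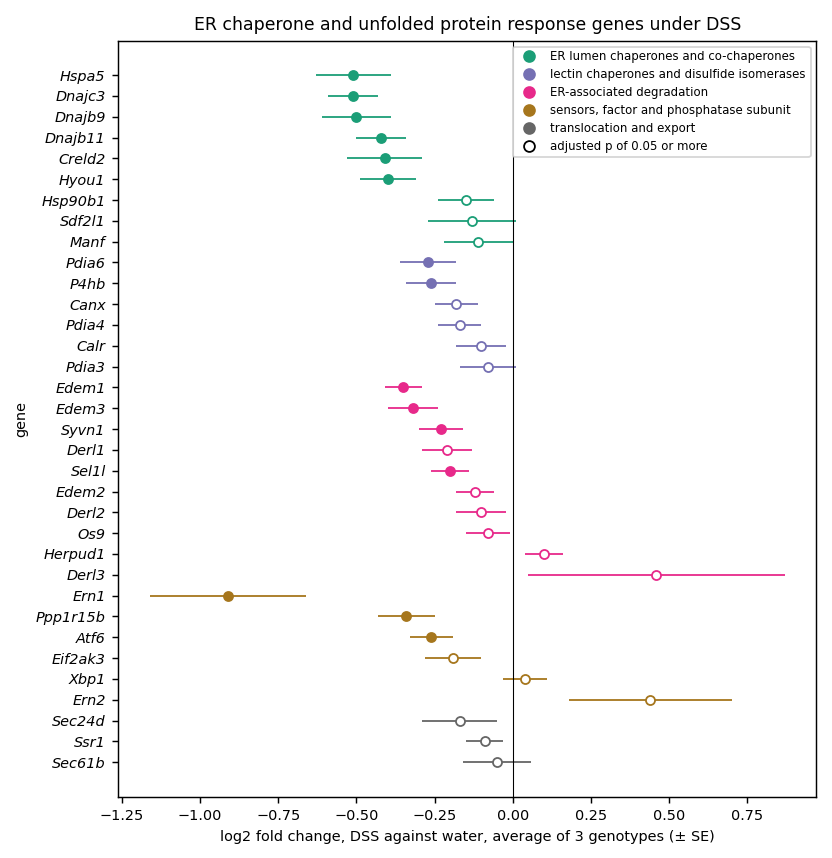
Log2 fold change of each of the 34 genes, DSS against water, averaged over the 3 genotypes, with its standard error (SE) and coloured by role. Filled points have an adjusted p under 0.05: all 15 lie below 0, from -0.91 for Ern1 to -0.20 for Sel1l.

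Among the ER lumen chaperones and co-chaperones 6 of 9 fell, with a median log2 fold change of -0.41 over the 9. Hspa5 lies at chr2:34771970-34777547 (GRCm38, plus strand). Its CPM in replicates A, B and C were 311, 357 and 290 in WT water and 222, 199 and 184 in WT DSS. In LAO1KO they were 440, 251 and 232 in water and 190, 140 and 194 under DSS. In DKO they were 265, 226 and 212 in water and 248, 215 and 209 under DSS. Every DSS library was below every water library in WT and in LAO1KO, whereas the DKO groups overlapped. The averaged log2 fold change was -0.51 ± 0.12 (SE, adjusted p = 0.0079).

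Dnajc3, a DnaJ co-chaperone of Hspa5 (chr14:118937976-118981697, plus strand), had the smallest p of the 34. It was at 93.5, 87.7 and 111 CPM in WT water and 67.9, 62.4 and 67.5 in WT DSS. LAO1KO libraries held 87.6, 98.6 and 109 CPM in water and 63.9, 55.1 and 74.6 under DSS, and DKO libraries 98.8, 89.4 and 76.3 in water and 70.5, 67.8 and 68.3 under DSS. In each genotype all 3 DSS libraries were below all 3 water libraries. The fold change was -0.51 ± 0.08 on the log2 scale (adjusted p = 0.000634).

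Dnajb11 (ERdj3, chr16:22857845-22879634, plus strand) is another DnaJ co-chaperone of Hspa5. Its CPM were 128, 155 and 136 in WT water and 111, 95.7 and 107 in WT DSS. The LAO1KO values were 159, 120 and 128 CPM in water and 93.9, 81.6 and 103 under DSS, and the DKO values 135, 111 and 107 in water and 105, 89.4 and 91.6 under DSS. Again no DSS library reached the lowest water library of its genotype, and the log2 fold change was -0.42 ± 0.08 (adjusted p = 0.00256).

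Dnajb9 (ERdj4, chr12:44205559-44210326, minus strand) is a DnaJ co-chaperone that the factor Xbp1 is known to induce. It was at 28.0, 37.9 and 34.9 CPM in WT water and 21.8, 30.1 and 26.8 in WT DSS. LAO1KO libraries held 32.0, 39.6 and 38.0 CPM in water and 23.2, 14.5 and 27.3 under DSS, and DKO libraries 31.4, 34.3 and 38.8 in water and 23.0, 25.1 and 31.4 under DSS. The groups overlapped in WT, lay apart in LAO1KO and lay apart in DKO as well, though there the highest DSS and the lowest water library both round to 31.4 CPM. The log2 fold change was -0.50 ± 0.11 (adjusted p = 0.00802).

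Hyou1 (chr9:44379490-44392369, plus strand) is a large Hsp70-related exchange factor for Hspa5. Its CPM were 83.0, 89.6 and 70.6 in WT water and 45.0, 39.2 and 27.6 in WT DSS. In LAO1KO they were 46.0, 59.0 and 52.0 in water and 53.5, 43.6 and 46.8 under DSS, and in DKO 46.8, 55.3 and 43.5 in water and 55.8, 48.7 and 46.0 under DSS. The WT water libraries were above the libraries of all other groups, and water and DSS overlapped in both knockouts. The averaged log2 fold change was -0.40 ± 0.09 (adjusted p = 0.00922). Creld2, an ER protein related to disulfide isomerases, had -0.41 ± 0.12 (adjusted p = 0.0243, 21.7 CPM under DSS and 29.2 in water). Creld2 did not pass without DKO water replicate A or DKO DSS replicate C (adjusted p up to 0.0523), nor without the 3 libraries that stood apart.

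The other 3 lumen chaperones did not pass. Hsp90b1 (chr10:86690209-86705509, minus strand) was at 391, 465 and 409 CPM in WT water and 385, 340 and 421 in WT DSS. It was at 572, 400 and 438 CPM in LAO1KO water, 379, 346 and 409 in LAO1KO DSS, 457, 350 and 370 in DKO water and 394, 418 and 368 in DKO DSS. Water and DSS overlapped in every genotype, with LAO1KO water replicate A the highest library, and the log2 fold change was -0.15 ± 0.09 (adjusted p = 0.246). Sdf2l1 (chr16:17130138-17132383, minus strand), which forms a complex with Dnajb11, was at 30.7, 33.8 and 18.4 CPM in WT water and 25.8, 18.5 and 16.5 in WT DSS. The knockouts had 27.5, 14.0 and 17.1 CPM (LAO1KO water), 19.8, 15 and 20.1 (LAO1KO DSS), 19.7, 19.8 and 15.9 (DKO water) and 22.5, 20.2 and 18.1 (DKO DSS). These overlapped too, with a log2 fold change of -0.13 ± 0.14 (adjusted p = 0.55). Manf, a secreted protein induced by ER stress, had -0.11 ± 0.11 (adjusted p = 0.523). Its exons overlap those of Dcaf1 (opposite strand) and Rbm15b (same strand), so its counts are uncertain.

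**Figure D3:**
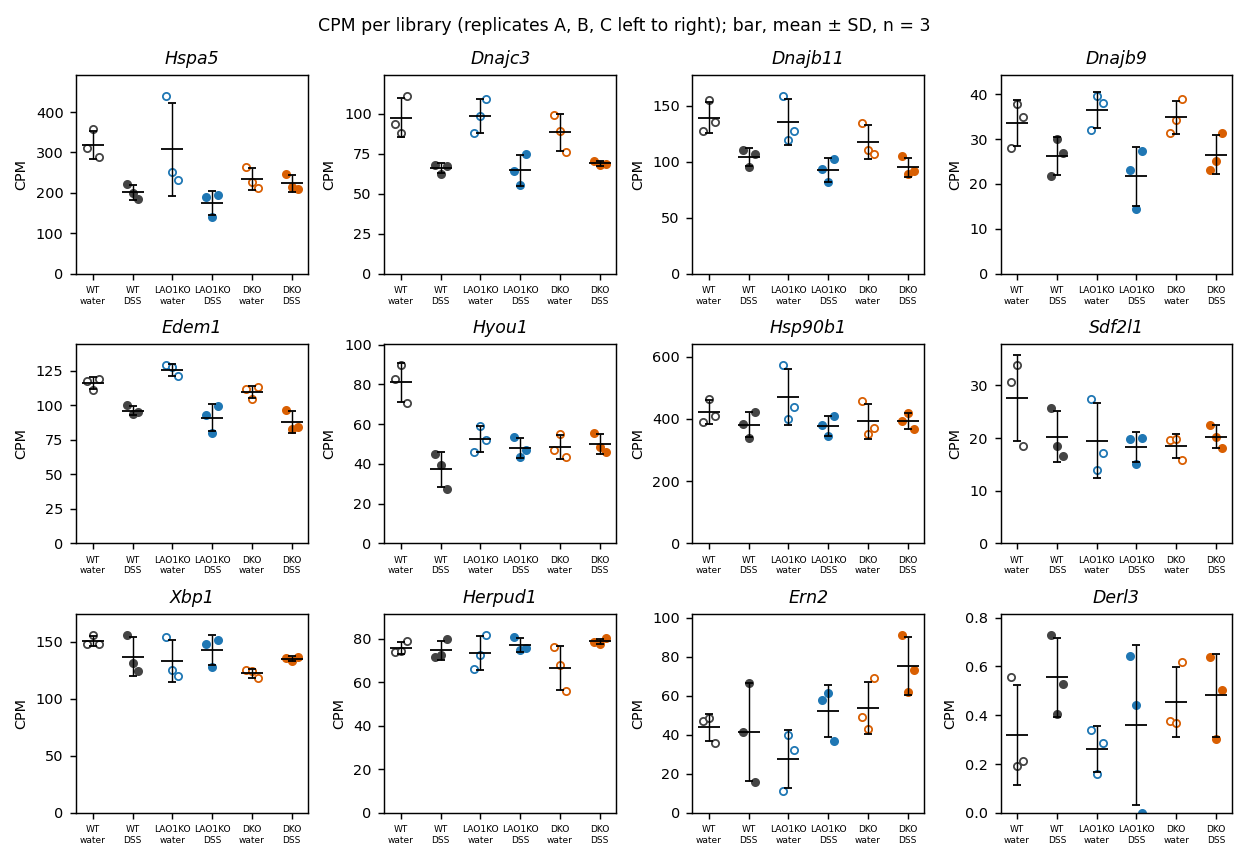
CPM of selected genes in each of the 18 libraries, with replicates A, B and C from left to right within a group and bars for the mean ± SD (n = 3). Dnajb11, Dnajc3 and Edem1 are lower under DSS in each genotype without overlap, while Hyou1 is highest in the 3 WT water libraries (70.6 to 89.6 CPM).

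The promoters of these genes show an element shared by part of the list. Cells use the ER stress element (ERSE), to which Atf6 and NF-Y bind, and its variant ERSE-II to raise transcription of chaperones. RefSeq promoter windows (GRCm38.p6, 250 bases before to 50 after the start) were used for 28 of the 34 genes, all but Hyou1, Manf, Ppp1r15b, Ern2, Derl1 and Atf6. The ERSE was searched on both strands as CCAAT, 9 bases of any kind and CCACG, and was found in 9 of the 28 (32.1%), against 39 of 32851 windows in all (0.119%). The ERSE-II, searched as ATTGG, 1 base and CCACG, was in 2 of the 28 (7.14%) against 0.0365% of all windows. The core of the UPR element, TGACGTGG, was in 1 (Sec24d, 3.57%) against 0.676%. The shares of the list count genes (28, with 29 windows), whereas the shares of all count windows. Since these elements are known from chaperone genes, a high share in this list was given in advance and is no result of these data. The stretches holding an ERSE or ERSE-II are shown because genes with and without a fall hold one. They are written 5′ to 3′ on the strand of the gene, with the parts of the element in capitals (in reverse complement, CGTGG before ATTGG, where the element lies on the opposite strand), and 20 bases on either side or 5 where an annotated exon overlaps. Distances are counted from the RefSeq start. For Hspa5 this start lies downstream of the gene start given above, so its stretch falls within an annotated Hspa5 exon. The first group fell under DSS.
Hspa5, chr2:34772020-34772048, plus strand, 65 bases before the start: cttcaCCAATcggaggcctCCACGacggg
Dnajc3, chr14:118937807-118937865, plus strand, 105 bases before: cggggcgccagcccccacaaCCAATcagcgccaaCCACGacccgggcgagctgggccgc
Dnajb11, ERSE-II, chr16:22857847-22857867, plus strand, 7 bases after: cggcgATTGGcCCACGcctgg
Pdia6, chr12:17266471-17266529, plus strand, 98 bases before: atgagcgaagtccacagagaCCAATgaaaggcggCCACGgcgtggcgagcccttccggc
Syvn1, chr19:6046512-6046570, plus strand, 44 bases before: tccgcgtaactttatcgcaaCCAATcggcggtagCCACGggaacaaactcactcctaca
Creld2, chr15:88819500-88819558, plus strand, 126 bases before: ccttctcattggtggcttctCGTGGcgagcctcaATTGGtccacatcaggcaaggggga
The second group did not pass the test, and Hsp90b1 holds the ERSE in both orientations.
Hsp90b1, chr10:86705618-86705676, minus strand, 212 bases before: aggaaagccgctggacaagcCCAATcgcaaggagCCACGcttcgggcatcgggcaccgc
Hsp90b1, chr10:86705513-86705571, minus strand, 107 bases before: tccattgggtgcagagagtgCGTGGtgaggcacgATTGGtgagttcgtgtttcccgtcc
Calr, chr8:84847055-84847113, minus strand, 162 bases before: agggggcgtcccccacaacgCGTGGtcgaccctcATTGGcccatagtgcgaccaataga
Canx, chr11:50325780-50325838, minus strand, 145 bases before: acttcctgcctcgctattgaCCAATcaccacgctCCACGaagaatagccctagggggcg
Herpud1, ERSE-II, chr8:94386357-94386407, plus strand, 52 bases before: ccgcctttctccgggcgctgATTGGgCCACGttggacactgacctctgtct
Derl3, chr10:75893222-75893280, plus strand, 156 bases before: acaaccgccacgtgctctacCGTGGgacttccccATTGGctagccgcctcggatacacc

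Of the 11 genes with either element, 6 fell in the averaged comparison, with a median log2 fold change of -0.23. Of the 17 genes whose window held neither, 6 fell as well, with a median of -0.17. The 6 genes without a window in the table had 3 falls and a median of -0.23. The genes with an element thus spanned much of the range, from -0.51 for Hspa5 and Dnajc3 to 0.46 for Derl3. A match of these letters describes the window and is no evidence that a factor was bound there.

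Of the lectin chaperones and disulfide isomerases, 2 of 6 fell, with a median of -0.18. P4hb had a log2 fold change of -0.26 ± 0.08 (adjusted p = 0.0295, 455 CPM under DSS and 547 in water) and Pdia6, a smaller disulfide isomerase, -0.27 ± 0.09 (adjusted p = 0.0476, 114 and 139 CPM). P4hb did not pass without WT water replicate A, DKO water replicate A or DKO DSS replicate C (adjusted p up to 0.0678). Pdia6 lay close to the threshold and failed in 11 of the 18 fits that left out 1 library, with log2 fold changes from -0.33 to -0.23 and an adjusted p of up to 0.0969. Those 11 fits left out any of the 3 WT water libraries, LAO1KO water C, DKO water A or B, WT DSS B or C, LAO1KO DSS B, or DKO DSS B or C. Pdia6 also failed with limma voom, without the filter on low counts and without the 3 libraries that stood apart. The abundant Calr (-0.10 ± 0.08, adjusted p = 0.394), Pdia3 (-0.08 ± 0.09, adjusted p = 0.6), Canx (-0.18 ± 0.07, adjusted p = 0.105) and Pdia4 (-0.17 ± 0.07, adjusted p = 0.0978) did not pass in edgeR's test. Canx passed with DESeq2 (adjusted p = 0.0412), with limma voom (adjusted p = 0.00389) and without the 3 libraries that stood apart (adjusted p = 0.0196).

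The degradation genes gave 4 falls among 10, with a median of -0.16. Edem1, which delivers misfolded glycoproteins to degradation, lies at chr6:108828641-108859356 on the plus strand. Its CPM were 118, 111 and 119 in WT water and 100, 93.5 and 95 in WT DSS. LAO1KO libraries held 129, 128 and 121 CPM in water and 93.0, 80.3 and 99.9 under DSS, and DKO libraries 112, 105 and 113 in water and 96.8, 82.8 and 84.1 under DSS. All 3 DSS libraries were below all 3 water libraries in every genotype, and the log2 fold change was -0.35 ± 0.06 (adjusted p = 0.00136). Its relative Edem3 had -0.32 ± 0.08 (adjusted p = 0.0153, 63.3 and 79.2 CPM), whereas Edem2 had -0.12 ± 0.06 (adjusted p = 0.162).

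Sel1l and Syvn1 (HRD1) together form the core of the main ER ubiquitin ligase. Sel1l had a log2 fold change of -0.20 ± 0.06 (adjusted p = 0.0234), and did not pass without DKO water replicate A (adjusted p = 0.0528). Syvn1 had -0.23 ± 0.07 (adjusted p = 0.0292), and failed without any 1 of WT water A or B, LAO1KO water B, DKO water B, WT DSS A or DKO DSS B or C (adjusted p up to 0.066). Exons of Syvn1 overlap exons of Mrpl49 on the opposite strand, and the same holds for Derl2 and Mis12. How strand was counted is not given, so the counts of Syvn1 and Derl2 are uncertain.

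Herpud1 (chr8:94386438-94395377, plus strand), a small scaffold of that ligase whose transcript is known to be induced by ER stress, did not pass. It was at 73.9, 74.6 and 79.0 CPM in WT water and 71.8, 72.8 and 79.8 in WT DSS. LAO1KO libraries held 66.1, 72.6 and 81.8 CPM in water and 80.8, 75.0 and 75.7 under DSS, and DKO libraries 76.2, 67.9 and 56.1 in water and 78.5, 77.8 and 80.3 under DSS. Water and DSS overlapped in WT and LAO1KO, while in DKO the DSS libraries were all above the water libraries. The averaged log2 fold change was 0.10 ± 0.06 (adjusted p = 0.315).

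The derlins, membrane proteins through which substrates leave the ER, did not pass in edgeR's test: Derl1 had -0.21 ± 0.08 (adjusted p = 0.0777), Derl2 -0.10 ± 0.08 (adjusted p = 0.412) and Derl3 0.46 ± 0.41 (adjusted p = 0.46). Derl1 passed with DESeq2 (adjusted p = 0.0431), with limma voom (adjusted p = 0.0218) and without the 3 libraries that stood apart (adjusted p = 0.0497). Derl3 (chr10:75893413-75895941, plus strand) is known for its high expression in professional secretory cells. Here it was close to the limit of detection, at 0.557, 0.191 and 0.213 CPM in WT water and 0.729, 0.406 and 0.529 in WT DSS. In LAO1KO it was at 0.341, 0.158 and 0.285 CPM in water and 0.643, 0.440 and 0 under DSS, where the count of 0 allows up to 0.123 CPM. In DKO it was at 0.377, 0.368 and 0.619 CPM in water and 0.639, 0.302 and 0.503 under DSS. No difference was detectable at this depth. Os9, a lectin of the ligase complex, had -0.08 ± 0.07 (adjusted p = 0.466).

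The sensors and their effectors gave 3 falls among 6, with a median of -0.23. Ern1 (chr11:106394650-106487852, minus strand) showed the lowest fold change of the list, -0.91 ± 0.25 (adjusted p = 0.0223). Its CPM were 13.5, 18.0 and 10.6 in WT water and 3.26, 5.16 and 1.70 in WT DSS. LAO1KO libraries held 1.96, 9.08 and 7.83 CPM in water and 4.76, 4.70 and 5.23 under DSS, and DKO libraries 8.91, 7.58 and 10.3 in water and 9.33, 5.38 and 6.56 under DSS. The groups lay apart in WT and overlapped in both knockouts. Atf6 had -0.26 ± 0.07 (adjusted p = 0.0222, 32.7 and 39.3 CPM). Ppp1r15b, which directs a phosphatase to the translation factor that Eif2ak3 phosphorylates, had -0.34 ± 0.09 (adjusted p = 0.0152, 131 and 166 CPM). Eif2ak3 itself had -0.19 ± 0.09 (adjusted p = 0.147).

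Ern2 (chr7:122169893-122186207, minus strand) varied widely between replicates. It was at 47.1, 48.6 and 35.8 CPM in WT water and 41.5, 66.4 and 16 in WT DSS. LAO1KO libraries held 11, 39.7 and 32.2 CPM in water and 57.8, 61.4 and 37.0 under DSS, and DKO libraries 49.1, 43.0 and 68.9 in water and 91.1, 61.8 and 73.0 under DSS. Water and DSS overlapped in all genotypes, and the log2 fold change was 0.44 ± 0.26 (adjusted p = 0.269).

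Xbp1 (chr11:5520659-5525893, plus strand) was among the steadiest of the 34. It was at 148, 156 and 148 CPM in WT water and 156, 131 and 124 in WT DSS. LAO1KO libraries held 154, 125 and 120 CPM in water and 148, 128 and 152 under DSS, and DKO libraries 125, 124 and 118 in water and 136, 133 and 137 under DSS. Water and DSS overlapped in WT and LAO1KO, and the DKO libraries were all higher under DSS. The averaged log2 fold change was 0.04 ± 0.07 (adjusted p = 0.737), and -0.01 without WT DSS replicate A. Counts per gene do not separate the spliced from the unspliced Xbp1 transcript, so the activity of Ern1 and Ern2 on it is not measured here.

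None of the 3 genes of translocation and export passed, with a median of -0.09. Sec61b had -0.05 ± 0.11 (adjusted p = 0.789), Ssr1 of the translocon-associated complex -0.09 ± 0.06 (adjusted p = 0.361), and Sec24d, a coat protein of the vesicles that leave the ER, -0.17 ± 0.12 (adjusted p = 0.324). The sign for Sec61b turned to 0.04 without LAO1KO water replicate A. DESeq2 and limma voom called 17 of the 34 genes each, and 10 of the 15 falls passed in every one of the 18 fits that left out 1 library: Hspa5, Hyou1, Dnajb9, Dnajb11, Dnajc3, Edem1, Edem3, Atf6, Ern1 and Ppp1r15b.

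**Figure D4:**
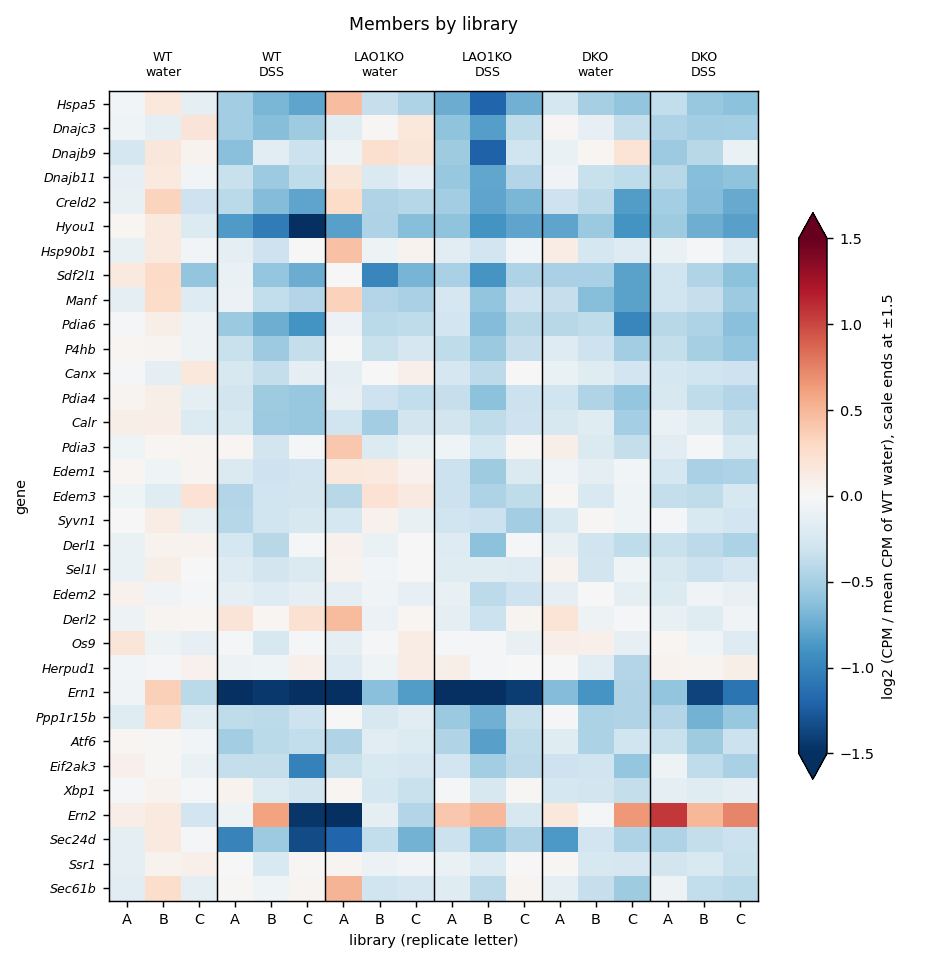
Log2 ratio of CPM to the mean of the WT water libraries for the listed genes other than Derl3 (rows) in each of the 18 libraries (columns, by group and replicate letter), with the colour scale ending at 1.5 in either direction. WT DSS columns are lower than WT water for most rows, and LAO1KO water replicate A shows high Hspa5 (440 CPM) beside low Ern2 (11 CPM).

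From a list of 74 further ER genes, 18 fell and 0 rose in edgeR's test, against the 9.18% of all genes that fell, and the median log2 fold change was -0.15. At an unadjusted p under 0.05, 1 of the 74 was higher and 32 were lower (43.2%, against 16.3% of all genes). Limma voom called 4 higher and 26 lower, where it called 33% of all genes in either direction. The 8 with the smallest p among those that passed included 4 degradation genes. Nploc4 had -0.56 ± 0.07 (adjusted p = 0.000248, 36.0 and 53.2 CPM), and Vcp, the ATPase with which it extracts proteins from the membrane, -0.40 ± 0.07 (adjusted p = 0.00247, 209 and 276 CPM). The ubiquitin-conjugating enzyme Ube2g2 had -0.46 ± 0.09 (adjusted p = 0.00239) and Selenos -0.39 ± 0.08 (adjusted p = 0.00355). Mogs, the first glucosidase of N-glycan trimming, had -0.47 ± 0.08 (adjusted p = 0.00118). The coat proteins Sec23b (-0.42 ± 0.08, adjusted p = 0.00381) and Sec23a (-0.37 ± 0.08, adjusted p = 0.00507) and the signal peptidase subunit Spcs3 (-0.38 ± 0.08, adjusted p = 0.00532) fell too. By kind, 5 of 10 degradation genes, 4 of 11 of glycosylation, 3 of 12 of the translocon and signal peptidase, 3 of 11 of transport, 2 of 8 of sensing and 1 of 15 of folding and redox fell.

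The branch downstream of Eif2ak3, known as the integrated stress response, gave no call in either direction in the averaged comparison. None of its 7 listed genes passed edgeR's test, against 9.18% of all genes that fell and 6.72% that rose. An unadjusted p under 0.05 was found for 1 (higher), against 16% of all genes higher. A list of 7 is too short to set these counts apart from those shares. Their median log2 fold change was 0.09. Trib3 had 0.46 ± 0.23 (adjusted p = 0.168), Ppp1r15a 0.24 ± 0.10 (adjusted p = 0.107), the factor Atf4 0.15 ± 0.08 (adjusted p = 0.196) and Ddit3 (CHOP) 0.09 ± 0.08 (adjusted p = 0.479). Atf3 had -0.09 ± 0.27 (adjusted p = 0.849), Asns -0.15 ± 0.18 (adjusted p = 0.586) and Chac1 -0.25 ± 0.37 (adjusted p = 0.674). Within WT, 4 of the 7 had an unadjusted p under 0.05, 2 higher and 2 lower (29.5% of all genes in either direction). The WT values ran from -1.55 to 0.41. In LAO1KO and in DKO 0 had an unadjusted p under 0.05, with values from -0.46 to 0.78 and from 0.02 to 0.82.

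Several measures of the libraries moved with DSS, and their part in the falls was not tested. They were compared by 2-sided exact permutation tests within genotypes, with p adjusted over 13 measures. The share of mitochondrial mRNA was 11.9 percentage points higher under DSS (adjusted exact p = 0.00894), at 6.89 to 9.08% in WT water and 26.1 to 44.9% in WT DSS. The ranges were 8.67 to 14.4% and 15.7 to 23.2% in LAO1KO and 10.5 to 20.7% and 14.3 to 23.6% in DKO. With the mitochondrial mRNAs left out of the counts, 15 of the 34 genes were called. The main fit was already scaled with TMM factors, so this count does not test their part in the falls. A clock index, in which the mean log2 CPM of clock genes in phase with Arntl is subtracted from that of genes in phase with Dbp, was 2.54 higher under DSS (adjusted exact p = 0.00163), with all 9 water libraries at -1.61 or below and all 9 DSS libraries at -0.915 or above. The labels give no hour of collection, so DSS and time of day cannot be told apart.

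Cell markers moved as well. Plasma cells are rich in ER, and the summed level of 7 of their markers was lower by 0.491 on the log2 scale (adjusted exact p = 0.00163), with log2 sums of 7.59 to 8.13 in water and 7.10 to 7.94 under DSS. Most of it was Sdc1, which epithelium also expresses (120 to 259 CPM, log2 fold change -0.48, adjusted p = 0.00197), and Sdc1 was the only 1 of the 6 tested that fell. The defining markers Tnfrsf17 (at most 0.148 CPM) and Mzb1 (median 0.298 CPM) were at or near 0. Of the antibody genes, Jchain had a median of 3.98 CPM (log2 fold change -1.5, adjusted p = 0.0598), Igha of 14.3 CPM (highest 38.4, log2 fold change -1.01, adjusted p = 0.203) and Igkc of 8.85 CPM (highest 25.2, log2 fold change -0.19, adjusted p = 0.827). Absorptive colonocyte markers were lower by 0.584 (adjusted exact p = 0.00975), with 2 of 5 lower, and the colon epithelium list by 0.133 (adjusted exact p = 0.56), with 2 of 6 lower. Goblet cell markers were higher by 0.297 (adjusted exact p = 0.084), with 4 of 6 higher and 1, Spdef, lower. Enteric neuron markers were higher by 0.80 (adjusted exact p = 0.00758), with 5 of 5 higher. The lists for B cells, fibroblasts, smooth muscle, adipocytes and macrophages had 0 members called in either direction in edgeR's test and adjusted exact p-values of 0.284 to 0.851. These averages joined genotypes of opposite sign for some lists. In WT, LAO1KO and DKO the log2 differences were -0.936, 0.108 and 0.343 for fibroblasts and -0.517, 0.237 and 0.421 for smooth muscle. They were -0.595, 1.63 and 1.02 for adipocytes and 0.305, -0.224 and -0.48 for the colon epithelium list. The differences within a genotype were not tested. Of the pancreatic acinar markers, which would show ER-rich tissue from outside the colon, only Cela1 could be tested, and the other 4 were at 0 to 0.308 CPM.

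Within WT, 3 of 9 lumen chaperones, 3 of 6 lectin chaperones and isomerases, 3 of 6 sensors and effectors and 1 of 3 genes of translocation and export fell. In all, 10 of the 34 genes fell and 0 rose (29.4%), against 6.59% of all genes that fell and 6.29% that rose. No gene of the 34 was higher at an unadjusted p under 0.05, where 18 were lower (52.9%, against 14.6% of all genes), nor in DESeq2 or limma voom. The median log2 fold change was -0.33, with a range of -2.03 to 0.78, beside 0.02 over all genes. In 19 of the 34 (55.9%) all 3 DSS libraries were below all 3 water libraries, against 15.8% of all genes.

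Hyou1 led this comparison, at 81.1 ± 9.64 CPM in water and 37.3 ± 8.83 under DSS (SD, n = 3), with a log2 fold change of -1.12 ± 0.16 (adjusted p = 0.00128). Ern1 went from 14.0 ± 3.70 to 3.38 ± 1.73 CPM (SD, n = 3), a log2 fold change of -2.03 ± 0.44 (adjusted p = 0.00942). Pdia6 libraries were at 165, 178 and 159 CPM in water and 114, 101 and 90 under DSS, with -0.72 ± 0.15 (adjusted p = 0.00842). The groups lay apart for all of these. Sec24d was at 32.8, 39.7 and 35.1 CPM in water and 17.9, 24.5 and 14.1 under DSS, with -0.92 ± 0.21 (adjusted p = 0.00961), and did not pass without WT DSS replicate C. Dnajc3 had -0.56 ± 0.13 (adjusted p = 0.0119) and Hspa5 -0.66 ± 0.20 (adjusted p = 0.0389). Pdia4 (-0.45 ± 0.12, adjusted p = 0.0246), Atf6 (-0.43 ± 0.12, adjusted p = 0.0319), Eif2ak3 (-0.54 ± 0.16, adjusted p = 0.0321) and Calr (-0.44 ± 0.14, adjusted p = 0.0473) also passed. None of the 10 degradation genes passed in WT.

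The WT count depended on single libraries. Leaving out WT water replicate A or WT water replicate B gave 5 calls each and leaving out WT DSS replicate C gave 4. The count was 6 without the 3 libraries that stood apart, while DESeq2 called 16. Of all genes, 12.9% were called in either direction in the main fit, 5.11% without the 3 libraries and 18.2% with DESeq2. Whichever WT library was left out, Hyou1, Ern1, Pdia6 and Dnajc3 passed (6 of 6 fits). Atf6 passed only without WT DSS replicate B. Hspa5 and Calr failed without WT water A or B or WT DSS B or C, and Pdia4 and Eif2ak3 without WT water A or B or WT DSS C. Pdia4 (adjusted p = 0.0572), Calr (adjusted p = 0.0941) and Eif2ak3 (adjusted p = 0.091) also failed in a fit of the WT groups alone. The log2 fold changes stayed negative in these fits (for Hspa5 from -0.76 to -0.58).

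In LAO1KO 0 of the 34 genes passed in edgeR's test, against 0.191% of all genes that fell and 0.00531% that rose. At an unadjusted p under 0.05, 11 were lower (32.4%, against 8.93% of all genes). DESeq2 called 5 (3.16% of all genes), and limma voom called 14, 12 of them lower (26.7% of all genes). The median log2 fold change was -0.20, with a range of -0.82 to 0.91. The smallest p-values belonged to Dnajc3 (-0.61 ± 0.13, adjusted p = 0.0626), Edem1 (-0.47 ± 0.10, adjusted p = 0.0685) and Hspa5 (-0.82 ± 0.20, adjusted p = 0.0919). For 10 of the 34 genes (29.4%) DSS libraries were all below water libraries, against 10.1% of all genes. The count became 2 without LAO1KO water replicate A, 4 without LAO1KO DSS replicate C and 3 without the 3 libraries that stood apart (1.45% of all genes).

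In DKO 0 of the 34 genes passed, against 0.00% of all genes that fell and 0.0159% that rose. At an unadjusted p under 0.05, 3 were lower (8.82%, against 5.44% of all genes) and 1 was higher (2.94%, against 4.14%). DESeq2 called 0 (0.695% of all genes) and limma voom 1 (2.35% of all genes). The median log2 fold change was -0.07, with a range of -0.39 to 0.49 and 19 of 34 below 0. The smallest p-values belonged to Edem1 (-0.32, adjusted p = 0.328), Dnajc3 (-0.36, adjusted p = 0.403) and Dnajb11 (-0.30, adjusted p = 0.504). Hspa5 was at 234 ± 27.7 CPM in water and 224 ± 20.7 under DSS (SD, n = 3). For 5 of the 34 genes (14.7%) the DSS libraries were all below the water libraries, against 10.4% of all genes. The lack of overlap was shared by all 3 genotypes for 3 genes (8.82%), Dnajb11, Dnajc3 and Edem1, against 1.91% of all genes.

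**Figure D5:**
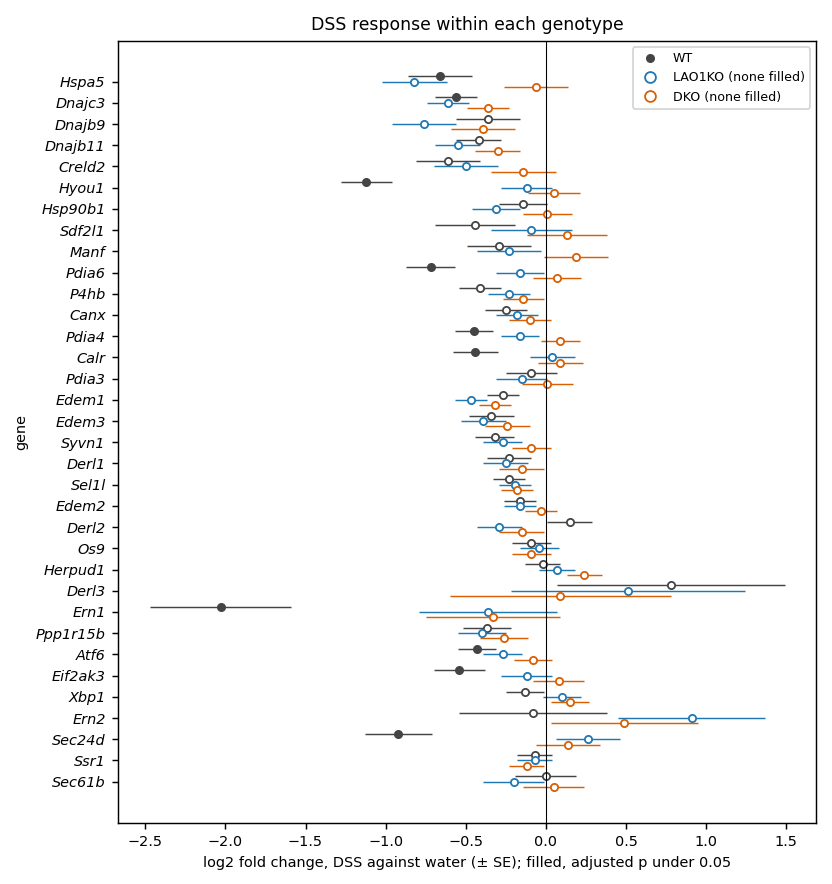
Log2 fold change, DSS against water, within WT, LAO1KO and DKO for each of the 34 genes, with its SE. Filled points (WT only, 10 genes) have an adjusted p under 0.05. WT points lie lowest for Ern1 (-2.03), Hyou1 (-1.12) and Sec24d (-0.92).

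The differences between genotypes in the response to DSS were tested directly. No gene of the 34 passed for LAO1KO against WT, where 0.00% of all genes were called. At an unadjusted p under 0.05, 5 were higher (14.7%, against 7.45% of all genes) and 1 was lower (2.94%, against 8.49%). DESeq2 called 2 (2.04% of all genes) and limma voom 3 (12.5% of all genes). The smallest p-values were those of Hyou1 (0.99 ± 0.23, adjusted p = 0.129), Sec24d (1.18 ± 0.29, adjusted p = 0.131) and Ern1 (1.67 ± 0.61, adjusted p = 0.211), where a positive value is a response less negative than in WT. The range over the 34 was -0.45 to 1.67, with a median of 0.05.

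For DKO against WT 0 of the 34 genes passed as well, against 0.0584% of all genes. At an unadjusted p under 0.05, 8 were higher (23.5%, against 7.46% of all genes) and 0 lower (against 7.94%). DESeq2 called 3 (2.14% of all genes) and limma voom 2 (1.14% of all genes). Hyou1 came nearest (1.17 ± 0.23, adjusted p = 0.0713), before Sec24d (1.07 ± 0.29, adjusted p = 0.124) and Pdia6 (0.78 ± 0.22, adjusted p = 0.128). The median was 0.22 over a range of -0.69 to 1.70, with 29 of 34 above 0. Leaving out WT water replicate C or WT DSS replicate B gave 1 call. These interactions share the 6 WT libraries, so their values are not independent.

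Knockouts and WT were also compared within each treatment. In water, 1 of the 34 genes (2.94%) was lower in DKO than in WT, against 0.621% of all genes called. This was Hyou1, at 48.5 ± 6.10 CPM in DKO and 81.1 ± 9.64 in WT (SD, n = 3), with a log2 fold change of -0.74 ± 0.16 (adjusted p = 0.0455). It did not pass without WT water replicate A or B or DKO water replicate A or C (log2 fold change from -0.86 to -0.67 over all fits that left out 1 library), without the filter on low counts, or in a fit of the compared groups alone. Pdia6 (-0.57, adjusted p = 0.0947) and Pdia4 (-0.44, adjusted p = 0.104) followed. The 13 genes of the 34 with an unadjusted p under 0.05 were all lower (38.2%, against 8.58% of all genes lower). DESeq2 called 3 (3.8% of all genes) and limma voom 1 (1.06% of all genes). The median was -0.25, with a range of -0.74 to 0.49 and 29 of 34 below 0.

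For LAO1KO against WT in water 0 of the 34 genes passed, against 0.0531% of all genes. The 6 with an unadjusted p under 0.05 were all lower (17.6%, against 7.34% of all genes lower). DESeq2 called 1 (1.31% of all genes) and limma voom 3 (4.96% of all genes). Hyou1 (-0.63, adjusted p = 0.175), Sec24d (-0.72, adjusted p = 0.183) and Ern1 (-1.16, adjusted p = 0.253) had the smallest p-values. Hyou1 had 52.3 ± 6.5 CPM in LAO1KO water (SD, n = 3), and all 6 knockout libraries in water were below the 3 WT libraries. Both comparisons use the same WT water libraries, which are also the controls of the DSS response in WT. The median was -0.11 and the range -1.16 to 0.16.

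Under DSS 0 of the 34 genes passed for LAO1KO against WT (0.0849% of all genes). At an unadjusted p under 0.05, 2 were higher (5.88%, against 3.17% of all genes) and 0 lower (against 2.85%). DESeq2 called 0 and limma voom 1 (5.24% of all genes). The smallest p-values were those of Sec24d (0.47, adjusted p = 0.809), Hyou1 (0.36, adjusted p = 0.809) and Derl2 (-0.28, adjusted p = 0.823), with a median over the 34 of -0.03 and a range of -0.57 to 0.51. For DKO against WT under DSS 0 passed as well (0.255% of all genes), and DESeq2 and limma voom called 0. The 3 with an unadjusted p under 0.05 were all higher (8.82%, against 4.61% of all genes higher). There Sec24d (0.55, adjusted p = 0.448), Hyou1 (0.43, adjusted p = 0.454) and Ern1 (1.05, adjusted p = 0.478) had the smallest p-values, with a median of 0.01 and a range of -0.27 to 1.05.

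Averaged over water and DSS, none of the 34 genes differed between genotypes past the threshold in edgeR, DESeq2 or limma voom. LAO1KO against WT gave 0 calls against 0.133% of all genes. It had 1 gene lower at an unadjusted p under 0.05 (2.94%, near the 2.54% of all genes lower). Its smallest p-values were those of Atf6 (-0.19, adjusted p = 0.996), Sdf2l1 (-0.33) and Edem2 (-0.11), over a range of -0.43 to 0.07 with a median of -0.08. DKO against WT gave 0 calls against 0.562% of all genes. It had 6 genes lower at an unadjusted p under 0.05 (17.6%, against 4.43% of all genes) and 0 higher (against 6.42%). Manf (-0.34, adjusted p = 0.424), Ppp1r15b (-0.25, adjusted p = 0.429) and Ssr1 (-0.18, adjusted p = 0.442) came first, over a range of -0.34 to 0.58 with a median of -0.11.

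DKO against LAO1KO gave 0 calls against 0.239% of all genes, with 1 higher at an unadjusted p under 0.05 (2.94%, against 4.02% of all genes). That was Ern2 (0.74 ± 0.33, adjusted p = 0.683), followed by Derl1 (-0.19, adjusted p = 0.698) and Ssr1 (-0.15, adjusted p = 0.698), over a range of -0.24 to 0.74 with a median of -0.05. The group means of Ern2 were 53.7 ± 13.6 CPM in DKO water and 75.3 ± 14.8 in DKO DSS, against 27.6 ± 14.9 and 52.1 ± 13.2 in LAO1KO (SD, n = 3). The LAO1KO water mean includes replicate A at 11 CPM.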

How the data were processed

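Colon RNA was prepared as stranded, paired-end mRNA libraries, per the labels' protocols. The authors deposited raw counts per gene symbol. Per the submitters' processing notes, the tools were HISAT2 2.1.0, Trimmomatic 0.38, FastQC 0.11.7, StringTie 2.1.3b, R 4.3.2 and DESeq2 1.42.1 and the builds GRCm38 and mm10, with no settings given. How strand, overlapping genes and multiply mapped reads were counted is not given in the sources used here.

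From these counts, differential expression was computed in R 4.3.3 with edgeR 4.0.16: filterByExpr left 18848 genes, TMM scaled the libraries, and 1 quasi-likelihood model with robust dispersion held all 18 libraries with 1 mean per group and no replicate block. Each contrast was tested with glmQLFTest, with Benjamini-Hochberg adjustment over all genes and a threshold of 0.05. Every adjusted p of a gene is from edgeR unless another tool is named. SE is the absolute log2 fold change over the square root of F. The code was tested on simulated data. Alternatives were RLE scaling, no filter, mitochondrial counts left out, DESeq2 1.42.0, limma 3.58.1 voom with sample weights, a replicate block, only the compared groups, each library left out in turn and, chosen after seeing the data, the 3 libraries that stood apart left out together.

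Gene positions and exon lengths (all exons merged) are those of GENCODE M21 (GRCm38). Depth was 26003174 to 36553193 counts per library; a count of 0 allows 3 counts, for counting error only. P-values in edgeR set a difference against the spread between the labelled replicates, estimated over all 6 groups. An exact test of 3 libraries against 3 cannot give less than 0.1. The exact permutation tests therefore combined the 3 genotypes, with 8000 arrangements and a smallest p of 0.00025. The clock index and the plasma cell markers were at that smallest p before adjustment. The 34 genes, the lists and the tests were chosen with earlier results of these data known. The averaged DSS comparison names every gene of the 34; other comparisons name those that passed, or the 3 with the smallest p where fewer passed. All 18 values are given for 8 listed genes, for the 4 others with the smallest p, and for Ern1, added after its values were seen.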

Additional observations from a re-analysis of the deposited data

How the results depend on the processing

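The count of 15 lower genes in the averaged DSS comparison was 14 to 17 under the other settings and 11 to 17 with 1 library left out; over all genes that comparison called 2996, with 1928 to 3551 leaving out 1 library and 6224 with limma voom. The 74 other ER genes gave 18 calls and 30 with limma voom. WT under DSS gave 10 calls, 16 with DESeq2, 6 without the 3 libraries that stood apart and 4 to 10 with 1 library left out. Of all genes, that comparison called 12.9%, 18.2% with DESeq2 and 5.11% without the 3 libraries. LAO1KO under DSS gave 0 calls, 1 with RLE scaling, 5 with DESeq2, 14 with limma voom, 3 without the 3 libraries and 0 to 4 with 1 left out. DKO under DSS gave 0, and 1 with limma voom. LAO1KO against WT gave 0 in water, 1 with DESeq2 and 3 with limma voom, and 0 under DSS, with 1 by limma voom. DKO against WT in water gave 1, 0 without the filter or with only the compared groups, 3 with DESeq2 and 0 to 1 with 1 library left out. The interaction of LAO1KO gave 0, 2 with DESeq2 and 3 with limma voom, and that of DKO 0, 3 with DESeq2, 2 with limma voom and 0 to 1 with 1 left out. DKO against WT under DSS and the 3 comparisons averaged over treatments gave 0 calls in every fit. The cause of these changes was not tested. Signs turned for genes that had not passed: Manf 0.04 with limma voom and 0.06 without the 3 libraries, Sec61b 0.05 and 0.08 likewise and -0.10 to 0.04 with 1 library left out, Sdf2l1 0.06 without the 3 libraries, and Xbp1 -0.01 to 0.07 with 1 left out. The labels do not say that a letter marks a shared litter or day. The correlation of deviations from the group means averaged 0.0236 over 45 pairs of the same letter (from -0.299 to 0.319). Over 90 pairs of different letters it averaged -0.0112 (from -0.299 to 0.394). Of the 18 libraries, 8 were closest to a library of their own letter. Whether letters deviate together was not tested. With the replicate block, 15 genes were called in the averaged DSS comparison, 13 in WT, 2 in LAO1KO, 2 in DKO against WT in water and 1 in the interaction of DKO. Depth limits Derl3 and, less so, Ern1, which had 29 to 564 counts per library.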

Other observations

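As a share of all counts without the mitochondrial mRNAs, the 34 genes together took 0.574 to 0.581% in WT water and 0.442 to 0.490% in WT DSS. The shares were 0.533 to 0.539% and 0.460 to 0.510% in LAO1KO and 0.467 to 0.534% and 0.490 to 0.524% in DKO. The ranges lay apart in WT and LAO1KO and overlapped in DKO. These values were not tested.

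Across genes, the averaged log2 fold change under DSS had a Spearman correlation with exon length of -0.152 over the 17228 tested genes with an annotated length, and of -0.363 over the 34. In WT the values were -0.256 and -0.20, in LAO1KO 0.0462 and -0.228, and in DKO -0.0716 and -0.39. The points of each correlation share the same libraries. The median exon length was 3634.5 bases for the 34 genes and 3978 for all.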
